A study of Drosophila melanogaster with 3 samples.

Results

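The transcripts described here are those of 10 core autophagy genes of *Drosophila melanogaster*: *Atg1*, *Atg13*, *Atg17*, *Atg9*, *Atg2*, *Atg18a*, *Atg7*, *Atg5*, *Atg8a* and *Atg8b*. They were chosen by name, as the rows of the deposited matrices that carry these symbols, and make up 10 of the 17738 genes in the matrices. The libraries come from a study of when the circadian clock starts in the fly intestine, in which dissociated gut cells were sequenced with a droplet method at 3 stages. Each stage is 1 library: red-eye pupae (early pupa), adults on day 1 (immature adult) and adults on days 7 to 8 (mature adult). All 3 share the labelled genotype CantonS(per01 background), the labelled sex (female) and collection at ZT0, the time of lights-on. The mutation per01 abolishes the clock, but the study's methods name CantonS alone for these libraries, so whether the cells carry it is uncertain. The methods also call the cells of the middle library pharate, a term for adults not yet emerged. The labels and the study's results give day 1 adults, and the labels were followed. With 1 library per stage, no difference between stages has a replicate check, and no test was run: all intervals are 95% intervals that cover counting error only.

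Autophagy encloses cytoplasm in a double membrane that then fuses with the lysosome. A kinase complex built on Atg1, Atg13 and Atg17 starts the process, Atg9, Atg2 and Atg18a bring and shape membrane, and a conjugation system that includes Atg7 and Atg5 attaches the ubiquitin-like protein Atg8a to lipid. In flies the pathway is best known from metamorphosis, when the larval midgut is dismantled with many autophagosomes in its cells and the adult midgut forms beneath it.

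After the limits on cells (under 25% mitochondrial UMIs, between 200 and 4000 genes, and between 1000 and 100000 UMIs, where a UMI marks 1 captured molecule), 2013 early pupa, 1197 immature adult and 1980 mature adult cells remained. They held 27026674, 21629263 and 47585248 UMIs, with medians of 9343, 14661 and 13474 UMIs per cell. Libraries shared at most 9 cell barcodes, of which at most 2 belonged to kept cells. *roX1* and *roX2*, RNAs of male flies, stood at 127 and 54.1 CPM (UMIs of a gene per 1000000 UMIs) in the early pupa library, against 8.18 and 1.66 CPM in immature and 0.904 and 0.042 CPM in mature adults, although all 3 are labelled female. Results for the members without the cells that hold a *roX* UMI are given where they differ.

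In the annotation of the release 6 assembly (BDGP6), *Atg1* lies on chromosome arm 3L from 12784429 to 12805116, *Atg2* on 3L from 2774338 to 2780677 and *Atg18a* on 3L from 8186857 to 8191118. *Atg13* lies on 3R from 8349815 to 8352817, *Atg17* on 3R from 5669713 to 5679930 and *Atg8b* on 3R from 17724410 to 17725063. *Atg9* lies on 2R from 16294400 to 16297232 and *Atg7* on 2R from 18620466 to 18625044. *Atg8a* lies on X from 10764878 to 10768338, and *Atg5* on X from 7314622 to 7323770. *Atg5* sits wholly inside *CG1677* on the same strand, so how the counting assigned reads between them is uncertain, and *Atg1* and *Atg7* overlap *CG42709* and *CG5335* on the other strand.

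Over all kept cells, 9 of the 10 genes were detected in every library, and *Atg8a* was the most abundant of them (the assay counts molecules at their 3′ ends, so levels need no length correction). *Atg8a*, the ubiquitin-like protein that coats the forming vesicle, had 14879, 6792 and 13432 UMIs in the early pupa, immature adult and mature adult libraries, or 551, 314 and 282 CPM. *Atg8b*, its paralog, which is known mainly from the testis, had 0 UMIs in all 3 libraries, which allows a level of up to 0.111, 0.139 and 0.063 CPM. It also had 0 UMIs in the barcodes of at most 1000 UMIs. The other 8 genes lay between 2.48 and 86.9 CPM.

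Of the kinase complex, *Atg1*, the kinase itself, had 56.5 CPM (53.7 to 59.4) in early pupae, 64.7 CPM (61.4 to 68.2) in immature adults and 21.7 CPM (20.36 to 23.03) in mature adults. *Atg13*, its regulatory partner, had 41.6, 34.8 and 18.4 CPM in the same order of stages. *Atg17*, the scaffold that corresponds to mammalian FIP200, had 86.9, 80.5 and 34.1 CPM. The mature adult library was the lowest of the 3 for each of these genes, and the early pupa and immature adult libraries lay close together.

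Of the genes that bring and shape membrane, *Atg9*, a membrane protein carried on vesicles, had 18.7 CPM in early pupae, 6.52 CPM in immature adults and 5.80 CPM in mature adults. *Atg2*, a lipid-transfer protein, had 23.8, 12.6 and 9.46 CPM in that order, and *Atg18a*, which binds the lipid PI3P, had 45.6, 19.6 and 12.6 CPM. For these genes the step lay between the early pupa and both adult libraries. Of the conjugation genes, *Atg7*, the activating enzyme, had 6.51, 5.18 and 2.48 CPM, and *Atg5*, part of the complex that completes the transfer of Atg8a, had 11.6, 7.86 and 5.38 CPM, each on 112 to 313 UMIs per library.

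**Figure D1:**
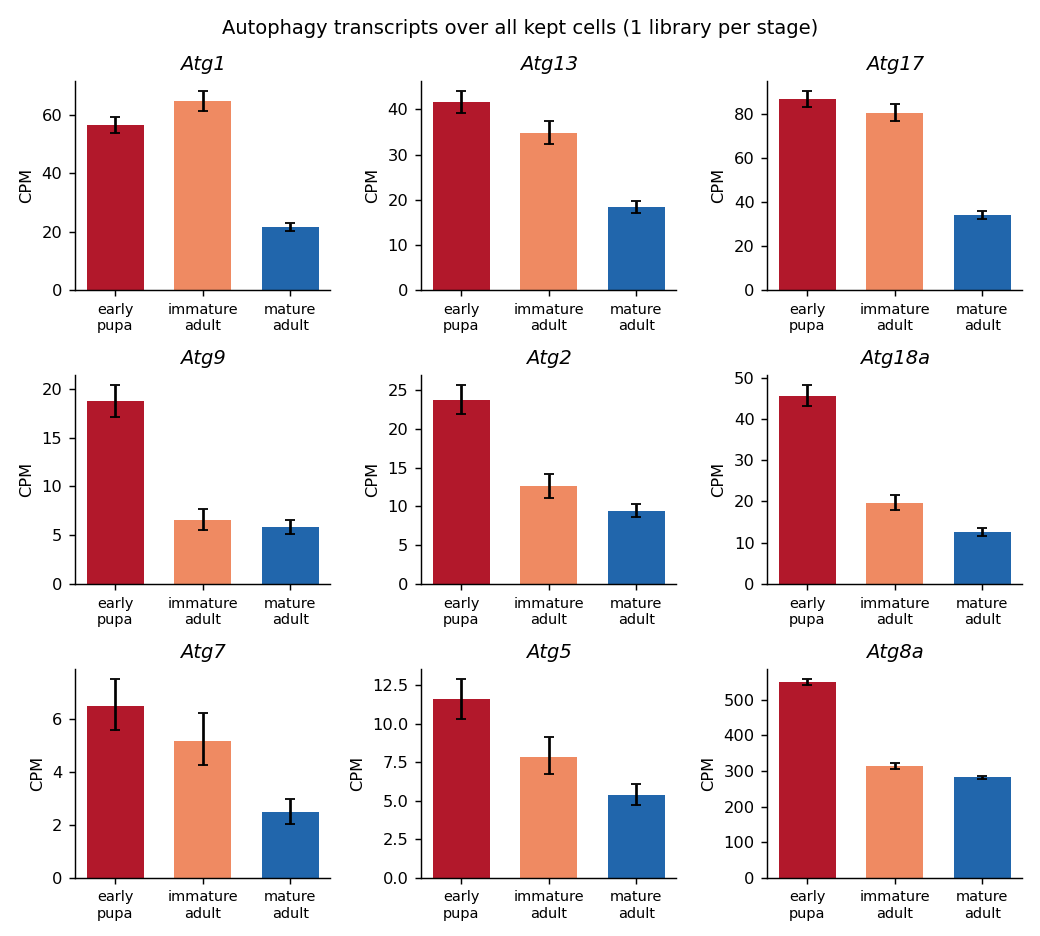
Level of each detected gene over all kept cells (y axis, CPM from 0) in the early pupa, immature adult and mature adult library (x axis). Bars are the pooled level of 1 library and whiskers its 95% counting interval. *Atg9*, *Atg2* and *Atg18a* are highest in the early pupa, while *Atg1* stands at 64.7 CPM in the immature adult.

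Set in pairs, 8 of the 9 detected genes were at least 2-fold lower in the mature adult than in the early pupa library, where 48.5% of all 8779 genes with at least 50 UMIs in the pair were also that much lower. Without the cells that hold a *roX* UMI, 9 of the 9 were, against 46.8% of all genes. None of the 9 was that much higher, against 7.65% of all genes. The median log2 ratio was -1.35 for the 9 genes and -0.97 for all genes. The mature library carries 29.4% of its UMIs in the 45 digestive enzyme and enterocyte marker genes, against 3.68% in the early pupa, and 51.4% in its 50 most abundant genes, against 38.5% in the early pupa. With mitochondrial, ribosomal protein and those top genes left out of the total, 2 of the 9 were at least 2-fold lower, against 29.0% of all genes. The part of the library's make-up in the values was not tested further. Counted per cell, *Atg8a* had 6.78 UMIs in the mature adult and 7.39 in the early pupa.

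Immature adult over early pupa, 2 of the 9 were at least 2-fold lower, against 18.6% of all genes, and none was higher, against 13.1% of all genes. The lower ones were *Atg9*, with 141 UMIs in the immature adult and 506 in the early pupa (log2 ratio -1.52, interval -1.80 to -1.25), and *Atg18a*, with 425 and 1233 (log2 ratio -1.22). The median over the 9 genes was -0.56 and that over all genes 0.06. Mature over immature adult, 3 of the 9 were at least 2-fold lower (*Atg1*, *Atg17* and *Atg7*, with log2 ratios of -1.58, -1.24 and -1.06), against 51.6% of all genes, and none was higher, against 5.8% of all genes. Each pair of stages shares a library with each other pair.

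The early pupa held a population of cells high in *MtnB*, a metallothionein that binds copper and zinc. In 641 of the 2013 early pupa cells *MtnB* took at least 0.5% of the UMIs, and in these cells 6 of the 9 autophagy genes were at least 2-fold higher than in the other 1372 cells, where 10.2% of all 8094 genes were that much higher. The median log2 ratio was 1.57 for the 9 genes and -1.14 for all genes. None of the 9 was at least 2-fold lower, against 55% of all genes. The cells, which are not replicates, come from 1 library.

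*Atg9* differed most: it had 389 UMIs in the MtnB-high cells and 117 in the far more numerous UMIs of the other cells, or 55.3 against 5.85 CPM (log2 ratio 3.24, interval 2.94 to 3.55). *Atg18a* had 111 against 22.8 CPM (log2 ratio 2.28), and *Atg2* 46.6 against 15.8 CPM (log2 ratio 1.57). All members of the membrane group were thus higher in the MtnB-high cells.

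*Atg8a* had 8759 UMIs in the MtnB-high cells and 6120 in the other cells, or 1246 against 306 CPM (log2 ratio 2.02, interval 1.98 to 2.07). Of the kinase complex, *Atg13* had 92.9 against 23.5 CPM (log2 ratio 1.98) and *Atg17* 162 against 60.4 CPM (log2 ratio 1.42). The kinase *Atg1* did not follow its partners, with 49.9 CPM in the MtnB-high and 58.8 CPM in the other cells (log2 ratio -0.24, interval -0.41 to -0.06). The conjugation genes were also under the 2-fold limit, *Atg5* with 16.6 against 9.80 CPM (log2 ratio 0.76) and *Atg7* with 4.41 against 7.25 CPM on 31 and 145 UMIs (log2 ratio -0.72).

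**Figure D2:**
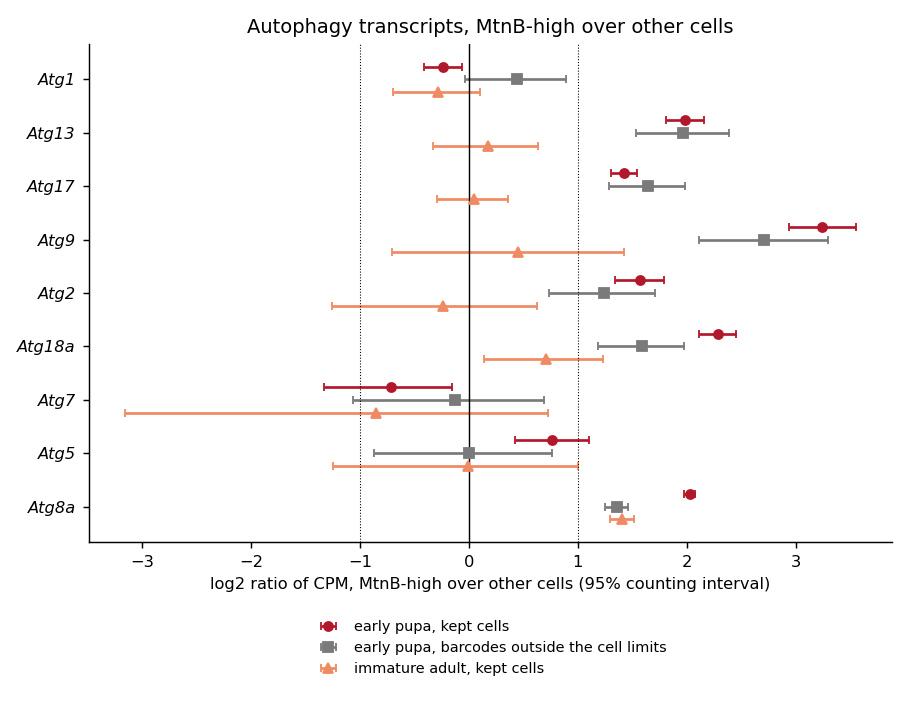
Log2 ratio of CPM, MtnB-high over other cells (x axis), for each detected gene (y axis), in early pupa kept cells, in early pupa barcodes of more than 1000 UMIs outside the limits on cells, and in immature adult kept cells. Points are ratios within 1 library, whiskers 95% counting intervals, and dotted lines mark 2-fold. *Atg9* has the highest early pupa ratio (3.24), and in the immature adult *Atg8a* alone passes 2-fold.

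The gate was set on *MtnB*, and all 13 genes of the pupal cell marker list, which includes *MtnB*, *MtnD* and the ferritin genes *Fer1HCH* and *Fer2LCH*, were higher in the MtnB-high cells, and *MtnB* itself stood at 152744 against 642 CPM. MtnB-high cells were shallower, with a median of 5234 UMIs against 10902 in the other cells. Summed marker levels were 949 against 4395 CPM for the 16 progenitor genes and 498 against 2956 CPM for the 18 enteroendocrine genes. The 45 enterocyte genes summed to 2834 against 48705 CPM. Of these 45, 15 were at 0 in the MtnB-high and 9 in the other cells, and 7 were higher in the MtnB-high cells. The 10 visceral muscle genes summed to 4812 against 4460 CPM, with 7 of the 10 higher in the MtnB-high cells. These sums pool all cells. As the median share of a cell's UMIs, the muscle genes took 0.025% in MtnB-high and 0.072% in the other cells. The enterocyte genes took a median of 0.173% against 0.239%, the progenitor genes 0.066% against 0.196% and the enteroendocrine genes 0% against 0.014%. The 6 hemocyte, 4 fat body and 4 trachea genes summed to 9.24 against 13.2, 1.42 against 12.7 and 14.5 against 186 CPM. *Hml*, *He*, *Lsp2* and *Fbp1* were at 0 in the MtnB-high cells. Of these, *He* had 0, *Lsp2* 1 and *Fbp1* 7 UMIs in all kept early pupa cells, so their 0 says little. The part of these differences in the autophagy values was not tested.

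The other cells are a mixture, and the comparison depends on that for *Atg1*. Against the early pupa cells of the enterocyte gate alone, described below, *Atg1* had a log2 ratio of 2.12, *Atg17* of 4.40 and *Atg9* of 4.21. There 7 of the 9 genes were at least 2-fold higher and 0 lower, against 27.4% of all 6040 genes higher and 29.9% lower.

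The levels also followed the *MtnB* share in steps. In cells with *MtnB* at under 0.05%, 0.05 to 0.5%, 0.5 to 5% and 5% or more of their UMIs (724, 648, 207 and 434 cells), *Atg8a* stood at 275, 384, 884 and 1405 CPM. *Atg9* stood at 5.12, 7.67, 32.1 and 65.6 CPM in the same order, *Atg18a* at 21.7, 25.3, 66.0 and 130 CPM, and *Atg13* at 21.3, 28.9, 57.2 and 109 CPM. *Atg17* and *Atg2* also were highest in the last step, at 186 and 54.7 CPM. *Atg1* stood at 59.8, 56.5, 43.2 and 52.9 CPM and *Atg7* at 7.29, 7.15, 4.18 and 4.51 CPM, with no climb. In molecules per cell, *Atg8a* had 5.41, 3.40, 9.19 and 15.8 UMIs, while the median depths were 15104, 3883, 4390 and 5714 UMIs, so that the cells with the most *Atg8a* molecules were not the deepest. The steps share 1 library and adjoin each other, so they describe these cells only.

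**Figure D3:**
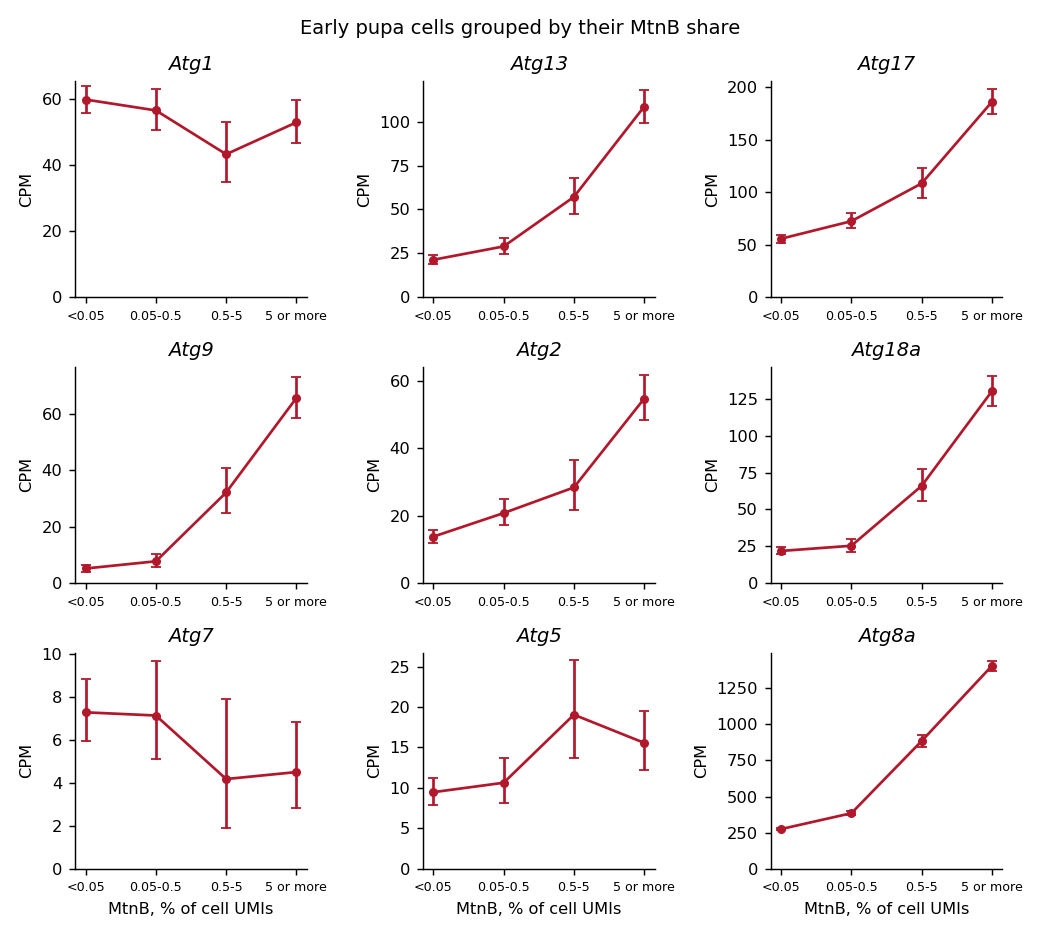
Level of each detected gene (y axis, CPM from 0) in early pupa cells grouped by the share of their UMIs that is *MtnB* (x axis, percent). Points are pooled levels of 724, 648, 207 and 434 cells and whiskers 95% counting intervals. *Atg8a* stands at 275 CPM in the lowest and 1405 CPM in the highest step, and *Atg1* shows no such climb.

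The immature adult library held 78 MtnB-high cells among 1197. There 1 of the 9 genes, *Atg8a*, was at least 2-fold higher than in the other 1119 cells, where 9.18% of all 7452 genes were, with 792 UMIs in the MtnB-high and 6000 in the other cells, or 772 against 291 CPM (log2 ratio 1.41, interval 1.30 to 1.51). *Atg18a* had 31.2 against 19.1 CPM and *Atg9* 8.77 against 6.41 CPM, the last on 9 UMIs in the MtnB-high cells. The interval of *Atg9* ran from -0.71 to 1.42 and did not reach the interval of the early pupa (2.94 to 3.55). Those of *Atg13*, *Atg17*, *Atg2*, *Atg18a* and *Atg8a* also did not reach their early pupa intervals. The difference between the stages was not tested. None of the 9 was at least 2-fold lower, against 36.8% of all genes. The count of 1 higher depends on the limits. With *MtnB* at 2% or more, on 28 cells against 1169, it was 6, against 12.4% of all genes. As a mean over cells it was 5, against 10.2% of all genes, and 2 of the 9 were lower, against 39.3% of all genes. In the mature adult library 1970 of 1980 cells were under the limit, which left too few MtnB-high cells to describe.

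The 48 other genes of the pathway were set out in the same way for the MtnB-high cells of the early pupa, where 10.2% of all genes were at least 2-fold higher, 55% lower and the median log2 ratio of all genes was -1.14. Of the other core Atg genes, 2 of 10 were at least 2-fold higher and 2 lower, with a median log2 ratio of 0.27: *Atg18b*, a relative of *Atg18a*, had 69.1 CPM in the MtnB-high and 23.1 CPM in the other cells (log2 ratio 1.58), while *Atg16*, the partner of *Atg5*, had 2.99 against 13.4 CPM (log2 ratio -2.17). Of the genes for the Vps34 lipid kinase and for fusion with the lysosome, 3 of 15 were higher and 4 lower, with a median of -0.09. *Syx17*, the SNARE that sits on the finished autophagosome, had 75.8 against 10.5 CPM (log2 ratio 2.86), and *Vps11*, a subunit of the tethering complex, 5.55 against 25.3 CPM (log2 ratio -2.19). *lt*, which encodes another subunit of that complex, had 6.97 against 24.2 CPM (log2 ratio -1.80).

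Of the lysosomal genes 3 of 7 were higher and 1 lower, with a median of 0.80, and the cathepsin genes *CtsB1* and *Cp1* had 1572 against 554 CPM (log2 ratio 1.51) and 1117 against 418 CPM (log2 ratio 1.42). The lower one, *Gba1b*, a glucocerebrosidase gene, had 4 UMIs in the MtnB-high and 63 in the other cells. The cargo adaptor *ref(2)P*, the fly p62, had 263 against 123 CPM (log2 ratio 1.10), and *bchs* 8.82 against 12.7 CPM. Of the upstream regulators 6 of 14 were higher and 5 lower, with a median of -0.02. The highest were *SNF4Agamma*, a subunit of the energy sensor AMPK, with 1509 against 182 CPM (log2 ratio 3.05), *Thor*, the translation repressor 4E-BP, with 3410 against 500 CPM (log2 ratio 2.77), and *Sesn*, the sestrin, with 662 against 131 CPM (log2 ratio 2.33). *Tor*, the kinase that restrains autophagy, had 3.27 against 13.9 CPM (log2 ratio -2.08). Also lower were *raptor* (8.82 against 22.6 CPM), *gig* (1.28 against 3.55), *Tsc1* (4.41 against 10.3) and *Mitf* (25.3 against 55.0). Also higher were *alc* (157 against 53.1 CPM), *S6k* (276 against 118) and *Eip93F* (2383 against 894). *Tor* and the genes after it were named after their values were seen.

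To set the genes out by cell type, cells were gated by the share of their UMIs in marker lists: at least 0.4% for progenitors, 1% for enteroendocrine cells (EE), 2% for visceral muscle, 0.5% of *MtnB*, and at least 1% of enterocyte (EC) markers with no other gate passed. These limits are ranges and were set after the values were seen: of the early pupa cells, 413 lay within 2-fold of the progenitor, 292 of the EC, 100 of the EE and 235 of the *MtnB* limit. Of the immature and mature adult cells, 190 and 213 lay within 2-fold of the EC limit. The EC markers took a median of 9.84%, 3.22% and 29.5% of the UMIs of EC-gated cells in the early pupa, immature adult and mature adult libraries, so the EC-gated cells of the 3 stages are not alike in these markers. The gates gave 591 MtnB-high, 440 EC, 55 EE and 465 progenitor early pupa cells. In the same order they gave 62, 330, 186 and 399 immature adult cells, and 3, 1556, 85 and 288 mature adult cells. Cells of several gates (138, 63 and 23) and of none (279, 142 and 20) were kept apart. MtnB-high cells of 1 gate number 591 rather than 641 for that reason, and the mature adult MtnB-high cells are not described.

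EC-gated cells of the early pupa had low levels of most of the genes, and in those of the mature adult the genes lay where genes in general did. In the early pupa, 7 of the 9 were at least 2-fold lower in EC-gated cells than in all others, against 48% of all genes, none was higher, against 6.66% of all genes, and the median log2 ratio was -2.47, against -0.91 over all genes. *Atg17* had 7.70 CPM in EC-gated and 111 CPM in all other cells, and *Atg1* 11.5 against 70.4 CPM. The other cells there include the MtnB-high cells. Without these, early pupa cells held *Atg17* at 60.4 and *Atg1* at 58.8 CPM, EC-gated ones included. In the mature adult library 7 of the 9 were that much lower in EC-gated cells, against 64.2% of all genes, and none was higher, against 10.6% of all genes, with medians of -1.60 over the 9 and -1.62 over all genes. *Atg1* had 9.29 CPM in mature EC-gated cells, against 86.2 CPM in all others, and *Atg7* 1.33 against 8.49 CPM. *Atg8a* was the exception there, with 281 CPM in mature EC-gated cells and 289 CPM in all others. In the immature adult library 2 of the 9, *Atg17* (17.7 against 92.4 CPM) and *Atg13* (18.8 against 37.8 CPM), were at least 2-fold lower in EC-gated cells, against 41.8% of all genes, and none was higher, against 15.5% of all genes.

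In EE-gated cells the counts were read against those of all genes, many of which were higher there in the mature adult. In the mature adult 6 of the 9 were at least 2-fold higher in EE-gated than in all other cells and none lower, against 49.6% of all genes higher and 10.5% lower, and *Atg17* had 195 against 30.4 CPM (log2 ratio 2.69). In the immature adult 3 of the 9 were higher (*Atg17*, *Atg7* and *Atg5*) and none lower, against 22.7% of all genes higher and 19.2% lower. In the early pupa *Atg1* and *Atg5* were higher and *Atg18a* lower, against 28% of all genes higher and 17.2% lower. *Atg18a* had 13.8 against 46.4 CPM, on 9 UMIs in EE-gated cells. Without the MtnB-high cells, early pupa cells held it at 22.8 CPM, EE-gated ones included.

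Progenitor-gated cells differed from the rest by stage. In the early pupa *Atg1* was at least 2-fold higher in them, with 104 against 41.2 CPM. *Atg9* (5.22 against 23.01 CPM) and *Atg8a* (280 against 636 CPM) were lower. Of all genes 30.9% were higher and 23.7% lower. The rest there includes the MtnB-high cells. Without these, early pupa cells held *Atg9* at 5.85 and *Atg8a* at 306 CPM, progenitors included. In the mature adult 6 of the 9 were higher and none lower, against 56.7% and 18.5% of all genes, and *Atg1* had 87.8 against 12.5 CPM. In the immature adult none was higher and 2, *Atg5* and *Atg8a*, were lower, against 17.1% and 30.3% of all genes.

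*Atg8a* can be ordered by class. In the early pupa it stood at 1295 CPM (1268 to 1323) in MtnB-high, 482 CPM (431 to 539) in EE and 342 CPM (300 to 388) in visceral muscle cells. It stood at 280 CPM (268 to 293) in progenitor and 190 CPM (179 to 201) in EC-gated cells. The intervals of neighbours did not overlap, but they leave out variation between cells, and the visceral muscle gate held 45 cells. In the mature adult *Atg8a* stood at 549 CPM in EE, 281 CPM in EC and 225 CPM in progenitor cells, so EC cells lay above progenitor cells there. The deposited barcodes match in number the cells the study counts before filtering, so those of at most 1000 UMIs may be shallow cells. They are at best a rough measure of free RNA. They held *Atg8a* at 512 CPM (453 to 576) in the early pupa and 377 CPM in the mature adult. These levels lay above every class named here but the MtnB-high cells of the early pupa and the EE cells of the mature adult. The early pupa interval overlapped that of the EE cells. The part of free RNA in the order of the lower classes was not tested.

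*Atg1* had another order. In the early pupa it stood at 144 CPM (116 to 176) in EE and 104 CPM (96.8 to 113) in progenitor cells, whose intervals do not overlap, then at 50.6 CPM in MtnB-high and 11.5 CPM in EC-gated cells. *Atg17* stood at 165 CPM (156 to 175) in MtnB-high, 130 CPM (104 to 161) in EE, 89.1 CPM (82.0 to 96.7) in progenitor and 7.70 CPM in EC-gated cells, and the intervals of MtnB-high and EE cells overlapped. *Atg13* stood at 96.0 CPM in MtnB-high, 31.1 CPM in progenitor, 24.5 CPM in EE and 6.91 CPM in EC-gated cells, where the progenitor and EE intervals overlapped.

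*Atg9*, *Atg18a* and *Atg2* were each highest in the MtnB-high cells of the early pupa, at 57.5, 114.9 and 49.0 CPM. Outside them *Atg9* lay between 2.98 and 10.7 CPM in the EC, EE and progenitor gates of the early pupa, and *Atg18a* between 10.2 and 29.9 CPM. *Atg9* was seen in 26.6% of MtnB-high and 1.38% of EC-gated cells thinned to 5000 UMIs, against 32.0% and 4.32% before thinning. The barcodes of at most 1000 UMIs in that library held *Atg9* at 11.3 CPM on 6 UMIs. Whether the share in EC-gated cells is expression is uncertain and was not tested. *Atg5* and *Atg7* were sparse, with 57 or fewer UMIs in most early pupa classes. *Atg5* was highest in EE cells, at 24.5, 16.2 and 21.2 CPM in the early pupa, immature adult and mature adult libraries, although in the early pupa its interval held the 17.0 CPM of MtnB-high cells.

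**Figure D4:**
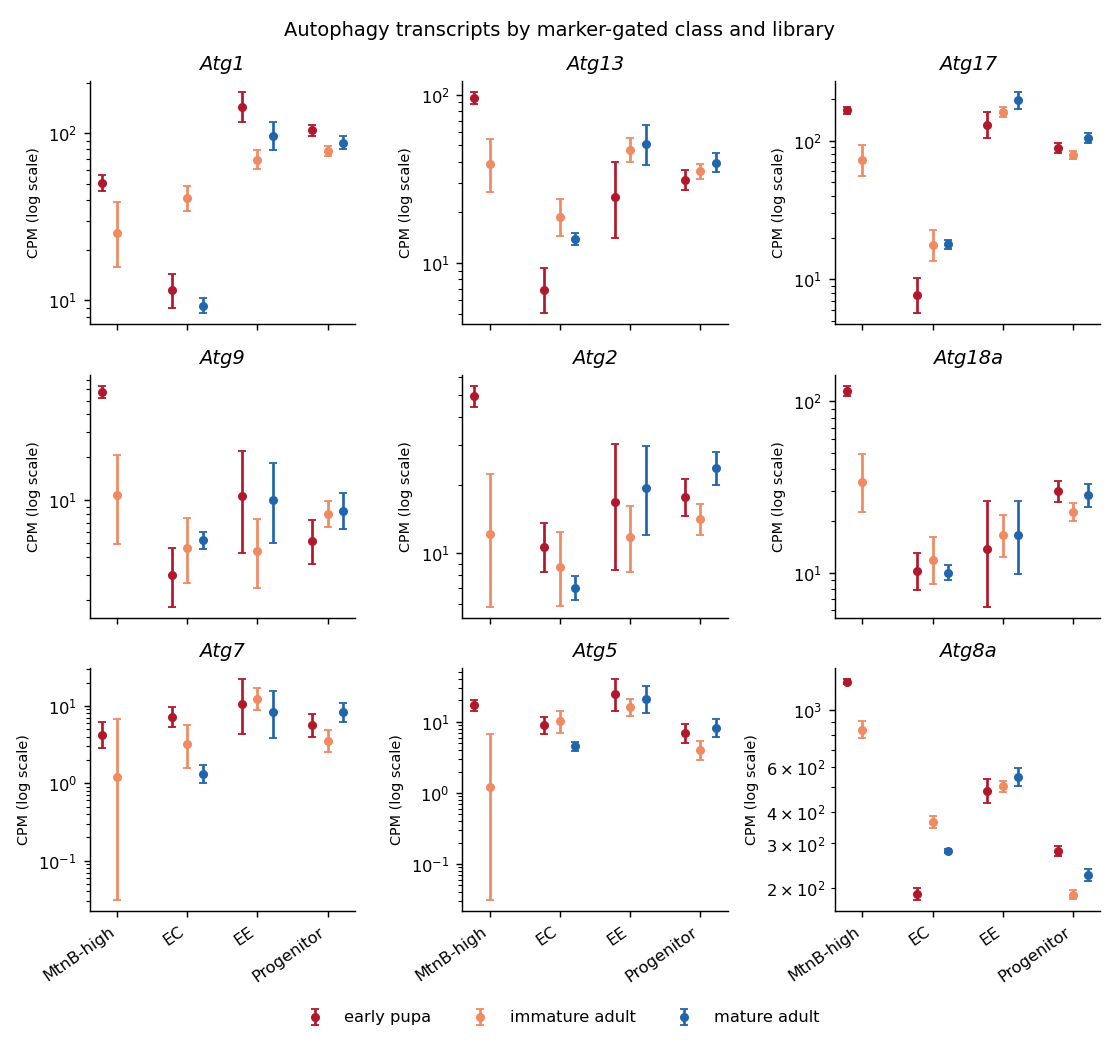
Level of each detected gene (y axis, CPM on a log scale) in cells of the MtnB-high, EC, EE and progenitor gates (x axis) of the early pupa, immature adult and mature adult library. Points are pooled levels within 1 library and whiskers 95% counting intervals, and the 3 mature adult MtnB-high cells are left out. *Atg9* stands at 57.5 CPM in early pupa MtnB-high cells and at 2.98 CPM in EC-gated cells.

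Stages were then compared within a class. In progenitors, none of the 9 genes was at least 2-fold higher or lower in the mature adult than in the early pupa, against 10.4% of all genes higher and 16.5% lower, and the log2 ratios ran from -0.32 (*Atg8a*) to 0.70 (*Atg9*). *Atg1* had 87.8 CPM in mature adult and 104 CPM in early pupa progenitors, and *Atg17* 104 against 89.1 CPM. Immature adult over early pupa, none was higher, against 5.08% of all genes, and none lower, against 20% of all genes. Mature over immature adult, *Atg7* (8.32 against 3.54 CPM, on 48 and 40 UMIs) and *Atg5* (8.32 against 3.99 CPM, on 48 and 45 UMIs) were the 2 of 9 at least 2-fold higher, against 7.96% of all genes, and none was lower, against 2.79% of all genes.

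In EC-gated cells, 2 of the 9 were at least 2-fold higher in the mature adult than in the early pupa, against 13% of all genes, and 1 was lower, against 37.7% of all genes. *Atg17* had 17.9 against 7.70 CPM on 713 and 49 UMIs (log2 ratio 1.21), *Atg13* 13.9 against 6.91 CPM (log2 ratio 1.00, at the limit itself) and *Atg7* 1.33 against 7.22 CPM on 53 and 46 UMIs (log2 ratio -2.44). *Atg8a* had 281 against 190 CPM (log2 ratio 0.57). Without the cells that hold a *roX* UMI, 1 of the 9 was higher, against 13.4% of all genes. Immature adult over early pupa, 3 of 8 were higher, against 22.2% of all genes, of which *Atg1* with 40.9 against 11.5 CPM had the largest ratio (log2 ratio 1.83), and *Atg7* was lower, against 13.7% of all genes. In mature EC-gated cells *Atg1* then stood at 9.29 CPM, against those 40.9 CPM of the immature adult, and *Atg7* and *Atg5* were also at least 2-fold lower, 3 of the 9, against 42.7% of all genes, with none higher, against 7.47% of all genes.

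In EE-gated cells 4 genes had enough UMIs in both libraries, and *Atg13* alone was at least 2-fold higher in the mature adult than in the early pupa, with 50.7 against 24.5 CPM on 55 and 16 UMIs, where 11.6% of all genes were, and none was lower, against 14.5% of all genes. It was no longer so without the cells that hold a *roX* UMI. Immature adult over early pupa, 1 of 6, *Atg1*, was at least 2-fold lower (69.6 against 144 CPM), against 10.1% of all genes, and none higher, against 13.5% of all genes. Mature over immature adult, none of 7 was higher or lower, against 4.26% and 6.75% of all genes.

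With the MtnB-high cells left out of all libraries, 2 of the 9 genes (*Atg1* and *Atg7*) were at least 2-fold lower in the mature adult than in the early pupa, against 53.5% of all genes, and none was higher, against 7.72% of all genes. In the immature adult none was lower than in the early pupa, against 17.5% of all genes, and none higher, against 11.1% of all genes. *Atg9* then had 5.81 CPM in the mature adult and 5.85 CPM in the early pupa (log2 ratio -0.01), and *Atg8a* 282 against 306 CPM (log2 ratio -0.12). *Atg1* was 21.5 against 58.8 CPM (log2 ratio -1.45). Immature adult over early pupa, *Atg13* then had 34.6 against 23.5 CPM (log2 ratio 0.56, interval 0.39 to 0.73) and *Atg17* 80.4 against 60.4 CPM (log2 ratio 0.41, interval 0.30 to 0.52), where both ratios were below 0 over all kept cells, and the interval of *Atg9* (log2 ratio 0.13, interval -0.24 to 0.50) spanned 0. This count was made after the values were seen.

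**Figure D5:**
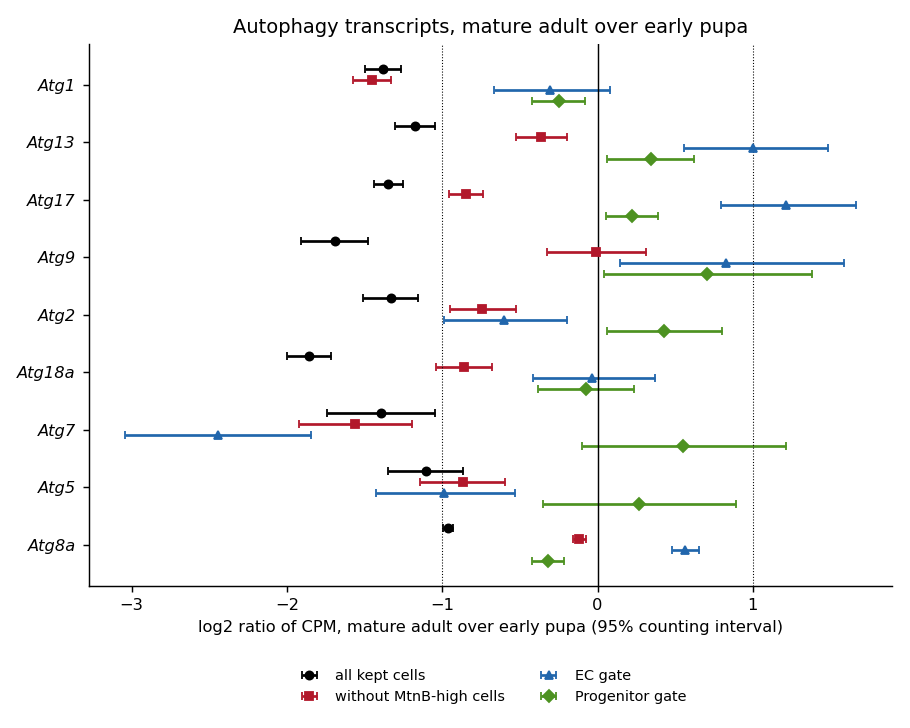
Log2 ratio of CPM, mature adult over early pupa (x axis), for each detected gene (y axis), over all kept cells, without MtnB-high cells, and within the EC and progenitor gates. Points are ratios of 1 library to 1 library, whiskers 95% counting intervals, and dotted lines mark 2-fold. *Atg9* stands at -1.69 over all kept cells and at -0.01 without MtnB-high cells.

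Across the 11 class and library groups of at least 50 cells, which share libraries and total counts, the members did not move as 1 block. Pearson's r of log2(CPM + 1) was 0.89 between *Atg13* and *Atg17*, 0.85 between *Atg2* and *Atg18a*, 0.80 between *Atg1* and *Atg17*, and 0.13 between *Atg1* and *Atg8a*. Among 4860 genes with at least 1000 UMIs, those most like *Atg8a* were *CG11791* (r = 0.93), *maf-S* (r = 0.93) and *CG9186* (r = 0.92). Those most like *Atg18a* were *SNF4Agamma* (r = 0.96), *pasi2* and *CG5498* (r = 0.95 each). For *Atg2* they were *Pitslre* (r = 0.94), *drpr* (r = 0.93) and *SNF4Agamma* (r = 0.92). Those most like *Atg1* were *CG5986* (r = 0.97), *dco*, the clock kinase (r = 0.96), and *bif* (r = 0.96), those most like *Atg13* *nudE* (r = 0.96), *CG9003* and *CG12065* (r = 0.95 each), and those most like *Atg17* *CG32066*, *DCP2* and *Dyrk3* (r = 0.96 each).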

How the data were processed

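Guts were dissected, dissociated and filtered, and libraries made with the 10x Genomics 3′ v3.1 kit. The authors processed the reads with Cell Ranger 3.0.2 and deposited matrices of whole UMI counts per gene and barcode, not normalized. Cells were limited as the study's methods state. UMI counts were summed per library and class and divided by the summed total, in CPM. Intervals are exact Poisson for levels, exact conditional for ratios and Clopper-Pearson for shares, and a count of 0 was read as at most 3. Genes needed 50 UMIs in both groups together to be compared, and 2-fold was the limit for counting. The members, the 48 pathway genes and the markers were chosen with earlier results of these data known. Named were all members, at most 3 genes of each pathway list with the largest ratio, and the 3 genes most alike to members with at least 1000 UMIs. The other upstream regulators past 2-fold were named after their values were seen. No doublet caller was run; cells passing several gates were set apart. The ratio was tested on simulated data, where all 200 changed genes of 8094 had the right sign (mature adult over early pupa). Software was Python 3.11.15, with scipy 1.17.1 and numpy 2.4.6 for intervals and sums, scanpy 1.11.5 for clusters and pandas 2.3.3 for tables. Alternatives covered limits on cells, totals, thinning, gates and clusters.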

Additional observations from a re-analysis of the deposited data

Results flagged for a closer look

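Barcodes with more than 1000 UMIs that fail the limits on cells were not used above, and they held the same transcripts. *Atg8a* stood there at 219 CPM in 1085 early pupa, 283 CPM in 690 immature adult and 345 CPM in 1161 mature adult barcodes, most of which have at least 25% mitochondrial UMIs. Of the early pupa barcodes, 319 were MtnB-high by the same limit, and in them *Atg8a* stood at 499 CPM, against 195 CPM in the other 766 (log2 ratio 1.36, interval 1.25 to 1.46). *Atg9* had 22.5 against 3.43 CPM (log2 ratio 2.71) and *Atg13* 35.4 against 9.07 CPM (log2 ratio 1.97), on 40 and 63 UMIs in the MtnB-high barcodes. *Atg1* had 25.3 against 18.6 CPM (log2 ratio 0.45, interval -0.03 to 0.89), the other sign from that in kept cells. These barcodes come from the same library as the kept cells.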

How the results depend on the processing

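No paired analysis was possible because each stage is 1 library. Percentages in brackets are the shares of all genes past the same limit in the same setting. With 6 of 9 genes at least 2-fold higher in MtnB-high than in other early pupa cells, alternatives gave 4 to 7 (8.75% to 27.4%). The 4 were of 6 genes that could be compared when thinned. As a mean over cells and at a fold of 1.5, 1 gene was lower (52.1% and 66.9%). The 8 genes lower in the mature adult than in the early pupa (48.5%) became 2 with the reduced total (29.0%). The count was 4 as a mean over cells (36.3%) and 2 of 7 when thinned to 1000 UMIs (32.7%). With no limit on genes or mitochondrial UMIs it was 2 (35.6%), and without MtnB-high cells also 2 (53.5%). It was 9 without the 5% deepest cells (46.9%), without *roX* cells (46.8%) or at a fold of 1.5 (66.2%). The 2 lower in the immature adult than in the early pupa (18.6%) became 1 under 10% mitochondrial UMIs (17.8%). That count was 3 as a mean over cells (18.2%), 4 at a fold of 1.5 (24.9%) and 0 with no limit (20.5%). Without MtnB-high cells it was 0 (17.5%), and *Atg9*, *Atg13* and *Atg17* changed sign (log2 ratios 0.13, 0.56 and 0.41). The 3 lower in the mature than in the immature adult (51.6%) became 1 with the reduced total (21.8%). This count was 2 as a mean over cells (27.7%) or without the deepest cells (48.3%), and 2 of 5 when thinned (27.7%). It was 4 under 10% mitochondrial UMIs (54.2%), 5 at a fold of 1.5 (73.6%) and 0 with no limit (24.7%). Mature adult over early pupa, the progenitor count of 0 higher became 1 at a fold of 1.5 (19.2%). The EC count of 2 higher became 1 without the 5% deepest cells, without *roX* cells or with doubled gate limits. When thinned it was 1 of the 2 genes that could be compared. It became 3 with the reduced total or at a fold of 1.5. Its 1 lower became 2 under 10% mitochondrial UMIs, as a mean over cells and without the deepest cells. That count was 3 at a fold of 1.5, 0 of 2 when thinned and 0 of 8 with at least 200 UMIs. The EE count of 1 became 0 under 10% mitochondrial UMIs, without *roX* cells or with doubled gate limits. It became 2 at a fold of 1.5, 0 of 1 when thinned and 0 of 2 with at least 200 UMIs. In immature adult MtnB-high cells the 1 higher (9.18%) became 5 as a mean over cells (10.2%) and 4 without the deepest cells (11.8%). It became 2 at a fold of 1.5 (15.8%), 6 at 2% *MtnB* (12.4%) and 2 of 3 when thinned (11.4%). Against EC-gated cells alone it became 4 of 5 (16.0%). The 0 lower (36.8%) became 2 as a mean over cells (39.3%) and 1 at a fold of 1.5 (49.8%). Of 547 single ratios under alternatives 50 changed sign, of which 1 (that of *Atg9*) had been at least 2-fold. Apart from that 1, 210 ratios moved outside their own counting interval and 336 stayed inside. Of the single levels, 334 moved outside their interval and 706 stayed inside. The causes were not tested. *Atg7* rests on 112 to 176 UMIs per library.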
